A study of Drosophila melanogaster with 18 samples.

Results

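The genes described here encode the proteins of the mitochondrial ribosome of Drosophila melanogaster, and they were taken as every gene whose symbol starts with mRpL (large subunit) or mRpS (small subunit). The reference table holds 73 such symbols, 47 for the large and 26 for the small subunit. Of these, 69 had a probe set (a group of array probes for the same transcript) annotated to 1 gene, and all 69 reached a log2 level of 6 or more on all 18 arrays. The tested members were therefore 44 large and 25 small subunit genes, out of 8211 genes tested in all. mRpS10 and mRpL53 are covered only by probe sets shared with a second gene, and mRpL34 and mRpL37 were not analysed here. Where a gene had several probe sets the one with the highest mean was used.

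Mitochondria keep their own ribosome, which translates the few messages encoded by mitochondrial DNA, all of them for membrane subunits of the respiratory chain and ATP synthase. Its ribosomal RNAs come from mitochondrial DNA, but its proteins are encoded in the nucleus, made in the cytoplasm and imported. Many have a counterpart in the bacterial ribosome, and the others were added during the evolution of mitochondria. In larvae, which grow fast and build new mitochondria as they do, reduced function of single members such as tko is known to slow development.

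The arrays hold total RNA of whole first-instar larvae, about 48 hours after egg laying, reared at 25 °C, with 200 larvae pooled for each biological replicate. There were 6 wildtype arrays (A to F) and 3 arrays (A to C) of each of 4 mutant genotypes. The HP1a mutants were HP1a04/HP1a05, HP1a being a protein that binds methylated histone H3 in heterochromatin, and the double mutants were HP1a04 PofD119/HP1a05 PofD119, Pof encoding a protein that coats chromosome 4. The Setdb1 mutants were Setdb110.1/ Setdb110.1 and the Su(var)3-9 mutants carried the alleles Su(var)3-9evo and Su(var)3-906 opposite each other, each gene encoding a methyltransferase for lysine 9 of histone H3. Embryos carry protein deposited by their mothers, and how much of it remained was not measured. In whole larvae, fewer cells of a type and less RNA per cell cannot be told apart.

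The targeted genes checked the labels in part. The gene for HP1a lay between 10.13 and 10.27 on the log2 scale on wildtype arrays, between 9.40 and 9.53 in HP1a mutants and between 9.45 and 9.61 on the arrays labelled HP1a Pof. Pof lay between 7.41 and 7.64 in wildtype and between 8.05 and 8.62 on the arrays labelled HP1a Pof. Its probe set thus read higher by 0.83 ± 0.18 (SE) where the label names a Pof mutant (limma adjusted p = 0.00104), which goes against the label unless the probes lie outside the lesion, and which part of the transcript they cover was not checked. Setdb1 and Su(var)3-9 were not analysed here. Gut markers (kappaTry, lambdaTry and mag) were called lower in all 4 mutants, 3 of 3 in each. The mean of their log2 levels ran from 10.80 to 11.22 on wildtype arrays and from 8.20 to 9.67 on the 12 mutant arrays. The cuticle gene Lcp65Ad, the 1 tested of 3 in its list, was higher by 3.30 to 3.75, and the 18S ribosomal RNA control lay between 12.18 and 12.41 in wildtype and between 8.95 and 11.11 in mutants. Of 2 tested neuron markers, elav was higher by 0.83 in HP1a mutants and 1.19 on the arrays labelled HP1a Pof, and nSyb by 0.01 (adjusted p = 0.958) and 0.36 (0.0426), with neither called in the other mutants. Of 2 tested muscle markers, up was lower in HP1a mutants (-0.56, 0.0261), and no other muscle call was made. The part of these differences in the results below was not tested.

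Of the 69 members, 34 rose in Setdb1 mutants and none fell, 26 rose and 2 fell in HP1a mutants, 25 rose and 3 fell on the arrays labelled HP1a Pof, and 8 rose and 32 fell in Su(var)3-9 mutants. A member was called, here and below, at a limma adjusted p under 0.05 over all 8211 genes. The same rule called 17.3% of all genes higher and 35.2% lower in Setdb1 mutants, 23.5% and 35.6% in HP1a mutants, 25.0% and 35.8% on the arrays labelled HP1a Pof, and 16.3% and 47.6% in Su(var)3-9 mutants. The members called make up 49.3% higher and 0.00% lower in Setdb1 mutants, 37.7% and 2.90% in HP1a mutants, and 36.2% and 4.35% on the arrays labelled HP1a Pof. In Su(var)3-9 mutants the shares of members, 11.6% higher and 46.4% lower, lay near the background. These 4 comparisons share the 6 wildtype arrays.

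All of these changes were small. The largest called rise was 1.71-fold, for mRpS31 on the arrays labelled HP1a Pof, and no member changed by as much as 2-fold in any comparison with wildtype. The smallest called change was between 0.15 and 0.18 (log2), with standard errors between 0.06 and 0.10. The median change of the members was 0.18 in Setdb1 mutants, 0.12 in HP1a mutants, 0.11 on the arrays labelled HP1a Pof and -0.15 in Su(var)3-9 mutants, beside -0.11, -0.06, -0.05 and -0.22 over all tested genes. With each array centred on its median gene, the member medians became 0.29, 0.19, 0.19 and 0.08, so the sign in Su(var)3-9 mutants turned. Centring also changed the counts of members called to 56 higher and 0 lower in Setdb1 mutants, 42 and 2 in HP1a mutants, 39 and 2 on the arrays labelled HP1a Pof, and 20 and 8 in Su(var)3-9 mutants. All genes were then called at 25.6% and 26.5%, 30.0% and 31.4%, 32.1% and 31.3%, and 29.2% and 28.7%.

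**Figure D1:**
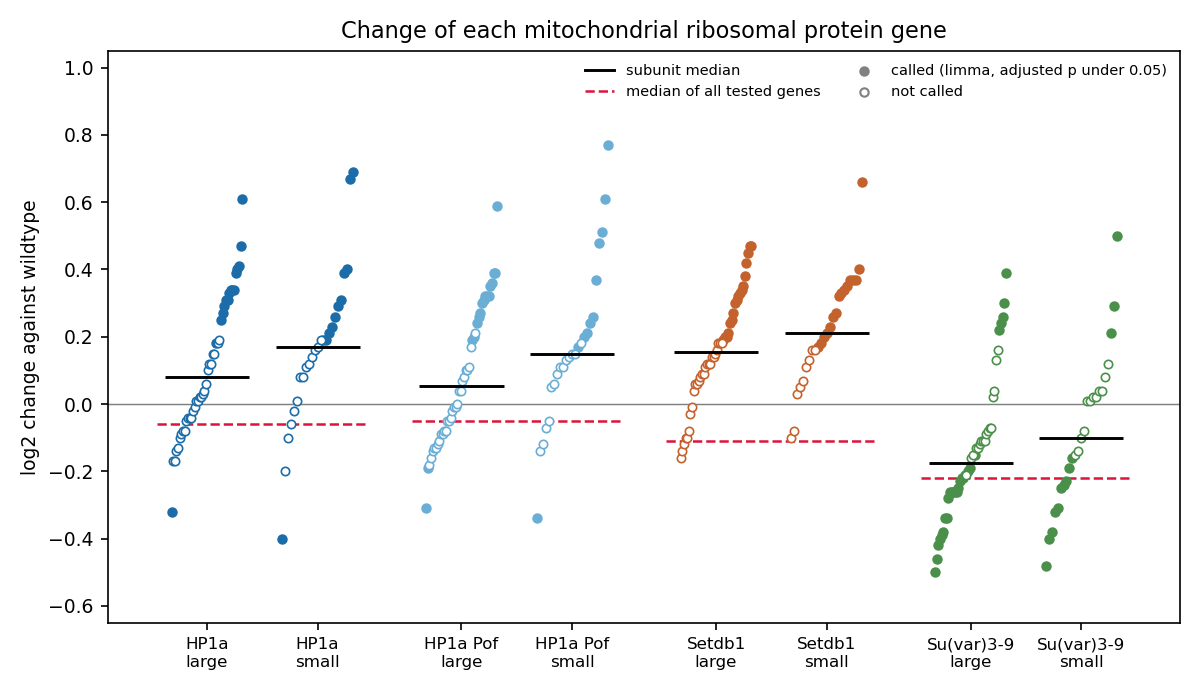
Log2 change against wildtype (y axis) of each of the 69 members, sorted within large (44) and small (25) subunit for each mutant group (x axis). Filled points passed limma at an adjusted p under 0.05, open points did not, black bars are subunit medians and dashed red lines the median over all 8211 tested genes. In Setdb1 mutants no filled point lies below 0, while in Su(var)3-9 mutants 32 do.

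Genes of both subunits rose in every mutant. In Setdb1 mutants 18 of 44 large and 16 of 25 small subunit genes rose, with median changes of 0.16 and 0.21. In HP1a mutants 15 large and 11 small subunit genes rose, and mRpL10 and mRpS5 fell, with medians of 0.08 and 0.17. On the arrays labelled HP1a Pof 15 large and 10 small subunit genes rose while mRpL10, mRpL28 and mRpS5 fell, with medians of 0.06 and 0.15. In Su(var)3-9 mutants 5 large and 3 small subunit genes rose and 22 and 10 fell, with medians of -0.18 and -0.10. The small subunit median lay above the large in each of the 4 mutants, but this difference between subunits was not tested.

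On single arrays the 2 subunits were raised against the median gene in every mutant. The median of the large subunit genes stood between 1.52 and 1.58 log2 units above the median tested gene on the 6 wildtype arrays. It stood between 1.68 and 1.75 in HP1a mutants, 1.69 and 1.73 on the arrays labelled HP1a Pof, 1.78 and 1.89 in Setdb1 mutants, and 1.62 and 1.73 in Su(var)3-9 mutants, so no mutant array overlapped wildtype. The small subunit stood between 1.48 and 1.67 in wildtype, 1.75 and 1.93 in HP1a mutants, 1.85 and 1.90 on the arrays labelled HP1a Pof, 1.83 and 1.92 in Setdb1 mutants, and 1.68 and 1.77 in Su(var)3-9 mutants. Here too the mutant arrays lay above all wildtype arrays, narrowly so for Su(var)3-9 mutants. As deposited, before that subtraction, the median tested gene lay between 8.22 and 8.29 on wildtype arrays, between 8.15 and 8.21 in the first 3 mutants, and at 8.10, 8.14 and 7.89 on arrays A, B and C of Su(var)3-9 mutants. Array C of that group had the narrowest spread of all 18, with an interquartile range over probe sets of 3.20 beside 3.55 to 3.77 on the other arrays. Without it 14 members instead of 32 were called lower in Su(var)3-9 mutants, while without array A or array B of the same group 5 instead of 8 were called higher. Without array C of the Setdb1 mutants 20 instead of 34 members were called higher there. The shares of all tested genes called without single arrays are not given, here or below. Such counts are therefore not read as particular to the members.

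**Figure D2:**
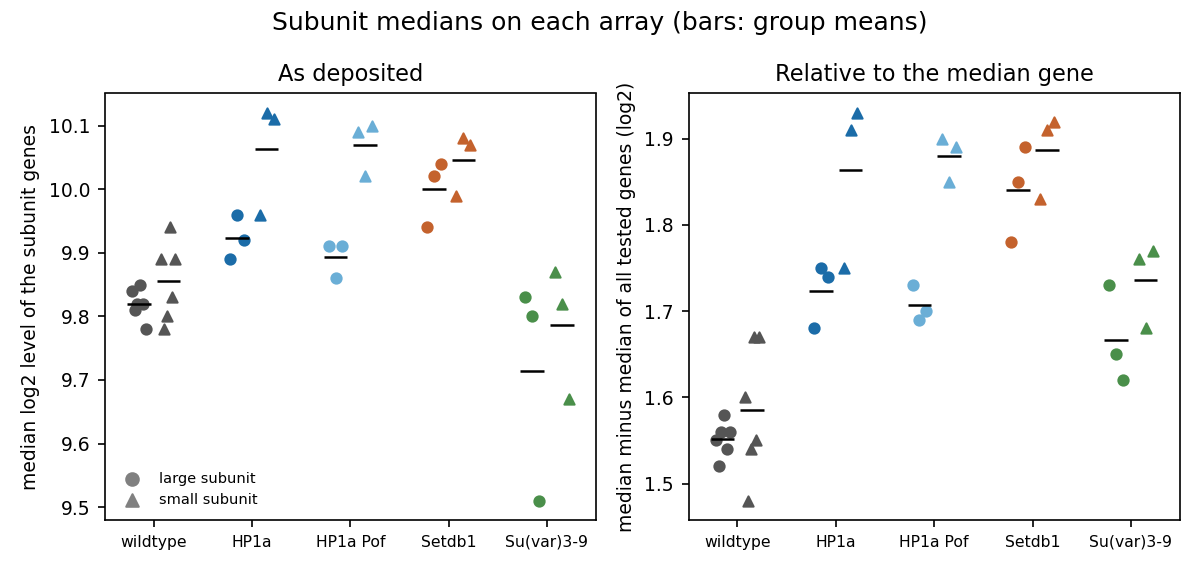
Median log2 level of the large (circles) and small (triangles) subunit genes on each of the 18 arrays, as deposited (left) and after subtracting the median of all tested genes on that array (right). Short bars are group means. On the right the wildtype large subunit lies between 1.52 and 1.58 and all mutant arrays lie above it, while on the left array C of Su(var)3-9 mutants stands lowest.

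Over the 4 comparisons with wildtype, 38 members rose in at least 1, 32 fell in at least 1, 8 of them did both, and 7 were called in none. How often all tested genes show these patterns was not counted, so none is read as particular to the members. Of the 20 members that rose in HP1a and Setdb1 mutants and on the arrays labelled HP1a Pof, 12 were not called in Su(var)3-9 mutants: mRpL13, mRpL14, mRpL16, mRpL47, mRpL49, mRpL51, mRpL52, mRpS18A, mRpS18B, mRpS21, mRpS29 and mRpS6. Their changes ran from 0.20 to 0.67 in the first 3 mutants and from -0.12 to 0.16 in the last. For mRpL47 this holds for the probe set used, and a second set, given below, read otherwise. A further 7 rose in all 4, namely mRpL2, mRpL20, mRpL33, mRpL42 and mRpL48 of the large and mRpS30 and mRpS31 of the small subunit. Another 22 members fell in Su(var)3-9 mutants alone, by -0.15 to -0.50, and had changes between -0.20 and 0.19 in the other mutants. Of all tested genes, 47.6% were called lower in Su(var)3-9 mutants. Fewer members were called lower there with centred arrays or without array C, as given above. mRpS24 rose with the first 3 mutants and fell in the last, and mRpL10 and mRpS5 fell in all but the Setdb1 mutants. mRpL15, mRpL21, mRpL27, mRpL36, mRpL39, mRpL41 and mRpS28 were called nowhere, with changes between -0.16 and 0.18. No member fell in all 4.

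mRpS31, a small subunit protein without a bacterial counterpart, had the largest rise of all members. Its log2 level on wildtype arrays was 9.39 at the lowest, 9.43 at the median and 9.59 at the highest. It was 10.06, 10.20 and 10.17 in HP1a mutants and 10.25, 10.13 and 10.28 on the arrays labelled HP1a Pof. It was 9.79, 9.77 and 9.89 in Setdb1 mutants and 9.93, 10.05 and 9.86 in Su(var)3-9 mutants. Every mutant array was thus above every wildtype array, and the changes were 0.69 ± 0.07 (SE; limma adjusted p = 2.9e-07), 0.77 ± 0.07 (6.79e-08), 0.37 ± 0.07 (0.000248) and 0.50 ± 0.07 (8.99e-06). HP1a mutants exceeded Setdb1 mutants by 0.33 ± 0.08 (adjusted p = 0.00772), and their difference from Su(var)3-9 mutants, 0.20 ± 0.08, was not called (adjusted p = 0.0502).

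mRpL48 and mRpS30 also rose in all 4 mutants. mRpL48, a large subunit protein, lay at 9.21, 9.30 and 9.34 (lowest, median and highest) in wildtype, at 9.76, 10.05 and 9.88 in HP1a mutants and at 9.87, 9.89 and 9.88 on the arrays labelled HP1a Pof. It was 9.61, 9.40 and 9.60 in Setdb1 mutants and 9.79, 9.79 and 9.46 in Su(var)3-9 mutants. None of these arrays reached down to wildtype, with changes of 0.61, 0.59, 0.25 and 0.39, each ± 0.08 (limma adjusted p = 1.09e-05, 1.31e-05, 0.0176 and 0.000583). The call in Setdb1 mutants ended when replicate letters entered as a replicate block (0.24, adjusted p = 0.0899), without Setdb1 array A (0.22, 0.0764) and without Setdb1 array C (0.22, 0.0802). It also ended against wildtype arrays A to C only (0.24, 0.0786). mRpS30, whose mammalian counterpart sits in the large subunit, ran from 10.02 to 10.20 in wildtype with a median of 10.07. It was 10.36, 10.49 and 10.58 in HP1a mutants, 10.58, 10.63 and 10.59 on the arrays labelled HP1a Pof, 10.51, 10.33 and 10.54 in Setdb1 mutants, and 10.53, 10.45 and 10.15 in Su(var)3-9 mutants. Array C of the last group overlapped wildtype, and the changes were 0.39, 0.51, 0.37 and 0.29, each ± 0.08 (limma adjusted p = 0.000616, 5.03e-05, 0.00116 and 0.00532).

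The other large subunit genes that rose in all 4 mutants include mRpL2, a core protein near the site of peptide bond formation, mRpL20 and mRpL33, which have bacterial counterparts, and mRpL42, which has none. mRpL2 lay between 9.46 and 9.56 in wildtype with a median of 9.52, and at 9.60, 9.93 and 9.80 in HP1a mutants. It was 9.75, 9.68 and 9.65 on the arrays labelled HP1a Pof, 9.81, 10.03 and 9.96 in Setdb1 mutants, and 9.82, 9.84 and 9.77 in Su(var)3-9 mutants. Every mutant array was above wildtype, with changes of 0.27, 0.19, 0.42 and 0.30, each ± 0.07 (limma adjusted p = 0.00374, 0.0291, 0.000114 and 0.00142). The call on the arrays labelled HP1a Pof ended without array A (0.16, 0.115) or B (0.19, 0.0625) of that group and without wildtype array E (0.18, 0.0535) or F (0.18, 0.0519). It also ended with the replicate block (0.17, 0.123) and against wildtype arrays A to C only (0.17, 0.13). mRpL20 rose by 0.47, 0.36, 0.45 and 0.22, each ± 0.08 (limma adjusted p = 6.68e-05, 0.000609, 0.00013 and 0.0195), from 9.94 to 10.05 in wildtype to 10.39, 10.54 and 10.44 in HP1a mutants, 10.42, 10.29 and 10.34 on the arrays labelled HP1a Pof, and 10.43, 10.30 and 10.59 in Setdb1 mutants. In Su(var)3-9 mutants, at 10.35, 10.23 and 10.03, it overlapped wildtype, and the call ended with the replicate block (0.20, 0.103), without array A (0.14, 0.129) and without array B (0.21, 0.0593). Against wildtype arrays A to C only that call ended too (0.20, 0.0941). mRpL33 lay at 10.46, 10.54 and 10.58 (lowest, median and highest) in wildtype, 11.02, 10.87 and 10.90 in HP1a mutants, 10.98, 10.75 and 11.03 on the arrays labelled HP1a Pof, 10.80, 10.88 and 10.94 with Setdb1 mutated and 10.91, 10.85 and 10.59 with Su(var)3-9 mutated. mRpL42 lay at 9.18, 9.31 and 9.47 (lowest, median and highest) in wildtype, 9.74, 9.80 and 9.65 in HP1a mutants, 9.72, 9.53 and 9.77 on the arrays labelled HP1a Pof, 9.67, 9.84 and 9.86 with Setdb1 mutated and 9.56, 9.70 and 9.41 with Su(var)3-9 mutated. Every mutant array was above wildtype for mRpL33, and for mRpL42 array C of the Su(var)3-9 group overlapped it. The changes were 0.40, 0.39, 0.34 and 0.26 for mRpL33 and 0.41, 0.35, 0.47 and 0.24 for mRpL42, each ± 0.08 (limma adjusted p between 0.000192 and 0.0189). The Su(var)3-9 call of mRpL33 ended without array A (0.19, adjusted p = 0.0613), and that of mRpL42 with the replicate block (0.18, 0.159) and without array B (0.17, 0.123). Against wildtype arrays A to C only the mRpL42 call ended as well (0.18, 0.14).

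mRpS6, a small subunit protein with a bacterial counterpart in the platform of that subunit, rose in 3 mutants and not in the fourth. It lay at 9.29, 9.37 and 9.41 (lowest, median and highest) in wildtype, at 9.96, 10.02 and 10.11 in HP1a mutants and at 10.03, 9.91 and 9.97 on the arrays labelled HP1a Pof. It was 9.99, 10.00 and 10.07 in Setdb1 mutants and 9.53, 9.51 and 9.08 in Su(var)3-9 mutants. The first 3 mutants stood clear of wildtype, while in Su(var)3-9 mutants arrays A and B lay just above and array C below it. The changes were 0.67, 0.61 and 0.66, each ± 0.08 (limma adjusted p = 4.77e-06, 1.11e-05 and 9.66e-06), and 0.02 ± 0.08 in Su(var)3-9 mutants (0.882). HP1a mutants exceeded Su(var)3-9 mutants by 0.66 ± 0.10 (adjusted p = 0.000151) and Setdb1 mutants did so by 0.64 ± 0.10 (0.000166). mRpS6 was named in part for these differences, the largest of the members, so they are no separate evidence. mRpL49, a large subunit protein, lay at 9.93, 9.97 and 10.03 (lowest, median and highest) in wildtype, 10.36, 10.24 and 10.33 in HP1a mutants, 10.37, 10.16 and 10.32 on the arrays labelled HP1a Pof, 10.32, 10.56 and 10.44 with Setdb1 mutated and 10.17, 10.20 and 10.01 with Su(var)3-9 mutated. Its Setdb1 arrays were clear of wildtype, with a change of 0.47 ± 0.07 (adjusted p = 3.84e-05), and of its Su(var)3-9 arrays C overlapped it. It rose by 0.34 and 0.31 in HP1a mutants and on the arrays labelled HP1a Pof, and its change in Su(var)3-9 mutants was 0.16 (0.0555).

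**Figure D3:**
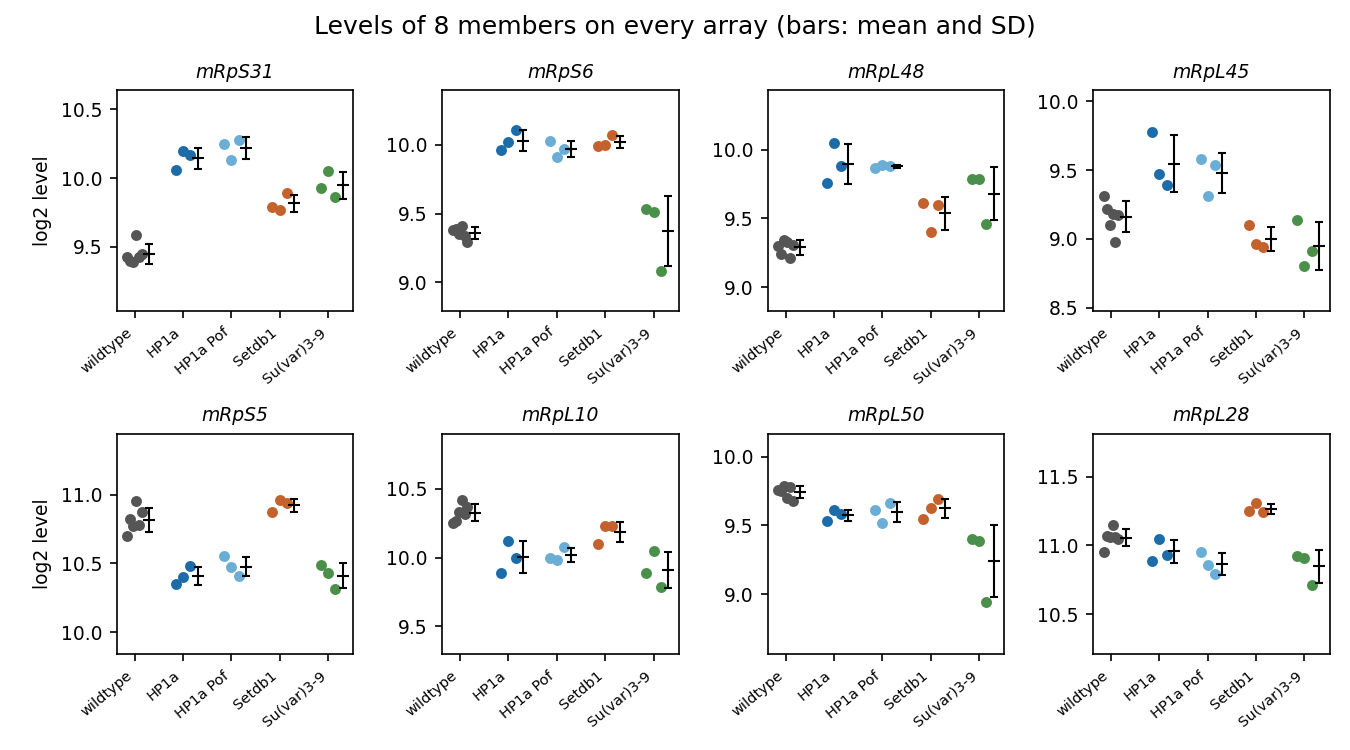
Log2 level (y axis, a span of 1.6 units in each panel) of 8 members on each array, by group, with the mean and SD of the group beside the points (n = 6 wildtype, n = 3 in each mutant). mRpS31 and mRpL48 lie above wildtype in all mutants, mRpS6 does so in the first 3, mRpL45 has its highest levels in the HP1a groups, and mRpS5 is low in all but Setdb1 mutants.

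mRpS5 and mRpL10 moved the other way. mRpS5, whose bacterial counterpart lines the entry path of the message and affects decoding accuracy, lay at 10.70, 10.80 and 10.95 (lowest, median and highest) in wildtype. It was 10.35, 10.40 and 10.48 in HP1a mutants, 10.55, 10.47 and 10.41 on the arrays labelled HP1a Pof, 10.49, 10.43 and 10.31 in Su(var)3-9 mutants, and 10.87, 10.96 and 10.94 in Setdb1 mutants. All 9 arrays of the first 3 of these groups lay below wildtype, and the Setdb1 arrays overlapped its upper end. The changes were -0.40 ± 0.07 (limma adjusted p = 7.9e-05), -0.34 ± 0.07 (0.000354), -0.40 ± 0.07 (6.92e-05) and, not called, 0.11 ± 0.07 (0.186). HP1a mutants were lower than Setdb1 mutants by -0.51 ± 0.08 (0.000297), and Setdb1 mutants were higher than Su(var)3-9 mutants by 0.51 ± 0.08 (0.000163). mRpS5 was named in part for the first of these differences, so that call is no separate evidence.

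mRpS5 also stands apart by its place. Among the members on chromosome arm 3L it is the nearest to the end of the arm that joins the centromere, with 10 of the 1654 tested genes of the arm lying beyond it and 184 tested genes between it and the next member, mRpL15. Its gene spans 6299 bp in Release 6 of the reference assembly, where the median is 909 bp over the members and 2721 bp over all tested genes with a length, and mRpS9 is the longest member at 13391 bp. Of the 69 members, 67 are shorter than the median gene, the exceptions being mRpS5 and mRpS9. Nearby genes moved in different directions: MED21 (a subunit of the Mediator complex) fell by -0.39, -0.35 and -0.62 in HP1a mutants, on the arrays labelled HP1a Pof and in Su(var)3-9 mutants, with -0.18 in Setdb1 mutants (adjusted p = 0.168). CG17698 had changes of -0.80, -0.80, -0.12 and 0.18 in the same order, the last pair not called. The synaptic gene Snap25 had 0.36, 0.51, -0.36 and, not called, 0.20. CG40298 had the largest changes of these neighbours, -2.43, -2.64, -1.56 and -1.05, all called. Next to these, scro was called only in Setdb1 mutants (0.59) and UQCR-11 only in Su(var)3-9 mutants (-0.42). Of the 30 nearest tested genes, 7 rose and 11 fell in HP1a mutants, 4 rose and 13 fell in Su(var)3-9 mutants, and 6 rose and 11 fell in Setdb1 mutants. Over all tested genes the shares higher and lower were 23.5% and 35.6%, 16.3% and 47.6%, and 17.3% and 35.2% in that order. No difference of the neighbours from all genes was tested.

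mRpL10 belongs to the base of the ribosomal stalk, where translation factors bind in bacteria. Its level lay between 10.25 and 10.42 in wildtype with a median of 10.33. It was 9.89, 10.12 and 10.00 in HP1a mutants, 10.00, 9.98 and 10.08 on the arrays labelled HP1a Pof, 10.10, 10.23 and 10.23 in Setdb1 mutants, and 9.89, 10.05 and 9.79 in Su(var)3-9 mutants. All 12 mutant arrays lay below wildtype, with changes of -0.32, -0.31, -0.14 and -0.42, each ± 0.07 (limma adjusted p = 0.000763, 0.0011, 0.0888 and 7.64e-05), so that in Setdb1 mutants the difference was not called. mRpL12, the mobile stalk protein that sits on mRpL10, was called lower with it in Su(var)3-9 mutants and was not lower in the other groups. It lay at 10.86, 10.94 and 11.02 (lowest, median and highest) in wildtype, 11.00, 11.16 and 11.09 in HP1a mutants, 11.13, 11.11 and 11.17 on the arrays labelled HP1a Pof, 11.15, 11.09 and 11.15 with Setdb1 mutated and 10.88, 10.79 and 10.48 with Su(var)3-9 mutated. The Setdb1 arrays and those labelled HP1a Pof were above wildtype, while HP1a and Su(var)3-9 mutants each had array A in its range. The changes were 0.15 ± 0.07 in HP1a mutants (0.0986), 0.20 ± 0.07 on the arrays labelled HP1a Pof (0.0284), 0.19 ± 0.07 with Setdb1 mutated (0.0421) and -0.22 ± 0.07 with Su(var)3-9 mutated (0.0159). The call in Setdb1 mutants ended under 10 of 16 alternatives, with values from 0.16 to 0.21. That in Su(var)3-9 mutants ended without array C of that group (-0.10, 0.153) and with centred arrays (0.00, 0.98). That on the arrays labelled HP1a Pof ended without any 1 of its arrays (0.20, 0.21 and 0.18, with adjusted p = 0.0628, 0.0538 and 0.0953) and without wildtype array F (0.18, 0.0538). The replicate block (0.17, 0.171) and wildtype arrays A to C only (0.17, 0.157) ended it too.

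mRpL45, a large subunit protein whose yeast relative helps to anchor the ribosome at the inner membrane, rose in the HP1a groups and was called in neither of the others. It lay at 8.98, 9.18 and 9.31 (lowest, median and highest) in wildtype and at 9.78, 9.47 and 9.39 in HP1a mutants. It was 9.58, 9.31 and 9.54 on the arrays labelled HP1a Pof, 9.10, 8.96 and 8.94 in Setdb1 mutants, and 9.14, 8.80 and 8.91 in Su(var)3-9 mutants. HP1a arrays stood clear of wildtype and 1 array labelled HP1a Pof touched it. The changes were 0.39 ± 0.10 (limma adjusted p = 0.00364), 0.32 ± 0.10 (0.0129), -0.16 ± 0.10 (0.193) and -0.21 ± 0.10 (0.0774). HP1a mutants exceeded Setdb1 mutants by 0.55 ± 0.12 (0.00427) and Su(var)3-9 mutants by 0.60 ± 0.12 (0.00131). The call on the arrays labelled HP1a Pof ended without array A (0.26, 0.0704) or array C (0.28, 0.0562) of that group. It also ended against wildtype arrays A to C only (0.26, 0.0901).

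Among the members that fell in Su(var)3-9 mutants, mRpL50, mRpS2, mRpL3 and mRpL32 had the largest called falls beside mRpL10 and mRpS5. mRpL50, a large subunit protein without a bacterial counterpart, lay between 9.68 and 9.79 in wildtype and at 9.40, 9.39 and 8.94 in Su(var)3-9 mutants. mRpS2, a small subunit protein conserved from bacteria, lay between 9.52 and 9.73 and at 9.31, 9.25 and 8.80. mRpL3, a core protein of the large subunit, lay between 9.34 and 9.50 and at 9.15, 9.02 and 8.68. In HP1a mutants, on the arrays labelled HP1a Pof and in Setdb1 mutants, mRpL50 had levels of 9.53, 9.61 and 9.58; 9.61, 9.52 and 9.66; and 9.55, 9.63 and 9.69. All Su(var)3-9 arrays of these members lay below all wildtype arrays, and array C was the lowest each time. The changes were -0.50 ± 0.08 (limma adjusted p = 0.000102), -0.48 ± 0.09 (0.000359) and -0.46 ± 0.09 (0.00033), and none of these calls ended under an alternative, centring included. For mRpS2 the levels were 9.39, 9.37 and 9.42 in HP1a mutants, 9.50, 9.32 and 9.55 on the arrays labelled HP1a Pof and 9.50, 9.47 and 9.58 in Setdb1 mutants. mRpL3 was at 9.15, 9.37 and 9.24; 9.27, 9.10 and 9.33; and 9.39, 9.25 and 9.38 in the same order, and neither member was called in these groups. mRpL32, known in yeast and mammals to be cut by a mitochondrial protease before assembly, lay between 9.55 and 9.69 in wildtype and at 9.33, 9.32 and 8.96 in Su(var)3-9 mutants. It was 9.69, 9.90 and 9.81 in HP1a mutants, 9.74, 9.66 and 9.64 on the arrays labelled HP1a Pof and 9.67, 9.78 and 9.90 in Setdb1 mutants, each group with an array in the wildtype range. Its change with Su(var)3-9 mutated was -0.40 ± 0.08 (0.000489), and it was lower than in HP1a and Setdb1 mutants, which exceeded Su(var)3-9 mutants by 0.60 ± 0.09 (0.000294) and 0.58 ± 0.09 (0.000359).

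Of the 4 comparisons made between mutants, that of Setdb1 with Su(var)3-9 mutants had the most members called. Set against each other, 48 of 69 members were higher in Setdb1 mutants (32 large and 16 small subunit genes) and none was lower, beside 19.0% and 8.48% of all genes. Without Su(var)3-9 array C the count was 28, and with centred arrays 35 members were higher and 2 lower, beside 10.5% and 12.8% of all genes. The median difference was 0.31 over members and 0.12 over all tested genes. HP1a mutants exceeded Su(var)3-9 mutants in 33 members (21 large and 12 small) with none lower, beside 28.2% and 11.9%. That count was 19 without Su(var)3-9 array C. With centred arrays it was 16, beside 15.5% of all genes higher and 20.1% lower. The medians were 0.24 over members and 0.14 over all genes. For the counts without array C no share of all genes is given.

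The 8 members called higher in Setdb1 and lower in Su(var)3-9 mutants were mRpL1 (of the stalk that handles leaving transfer RNA), mRpL4, mRpL12, mRpL17 and mRpL28 of the large subunit and mRpS11, mRpS24 and mRpS35 of the small. Between these mutants the differences ran from 0.36 (mRpS24) to 0.52 (mRpS11), all called. With centred arrays they ran from 0.25 to 0.41, all called again. Each difference is the Setdb1 change minus the Su(var)3-9 change, and the members were chosen by opposite calls on those changes. The calls between these mutants were therefore largely set by that choice and are no separate evidence for the pattern. The changes against wildtype were smaller in size, from 0.17 to 0.32 in Setdb1 mutants and from -0.31 to -0.19 in Su(var)3-9 mutants. With centred arrays none of the 8 falls in Su(var)3-9 mutants was called, the values lying between -0.09 and 0.03, while all 8 rises in Setdb1 mutants were, at 0.28 to 0.43. mRpL28 shows the pattern by array. It lay at 10.95, 11.06 and 11.15 (lowest, median and highest) in wildtype, 11.25, 11.31 and 11.24 with Setdb1 mutated, 10.92, 10.91 and 10.71 with Su(var)3-9 mutated, 10.89, 11.05 and 10.93 in HP1a mutants, and 10.95, 10.86 and 10.79 on the arrays labelled HP1a Pof. The Setdb1 arrays were the highest of all 18, and HP1a mutants were lower than them by -0.31 ± 0.08 (limma adjusted p = 0.00969). Its fall of -0.19 on the arrays labelled HP1a Pof was not called without array B (-0.19, 0.0528) or C (-0.16, 0.0965) of that group, with centred arrays (-0.11, 0.112), with the replicate block (-0.16, 0.104) or against wildtype arrays A to C only (-0.16, 0.119). Leaving out Su(var)3-9 array C ended the falls there of mRpL1, mRpL12, mRpL17, mRpL28, mRpS24 and mRpS35, at -0.08 to -0.14. Leaving out Setdb1 array C ended the rises in that group of mRpL4, mRpL12, mRpL17, mRpS11, mRpS24 and mRpS35, at 0.13 to 0.19, leaving out array B that of mRpL28 (0.19, 0.0525) and array A that of mRpS24 (0.17, 0.0597). Single wildtype arrays ended the rises of mRpL12 (A, B, D, E or F), mRpL17 (A or E) and mRpS11 (A, E or F) in Setdb1 mutants, at 0.17 to 0.20, and the fall of mRpL1 (B, D or E) in Su(var)3-9 mutants, at -0.19. With the replicate block the calls in Setdb1 mutants ended for mRpL4 (0.20, 0.0859), mRpL12 (0.16, 0.212), mRpL17 (0.19, 0.138), mRpS11 (0.17, 0.181) and mRpS24 (0.20, 0.0556). The calls in Su(var)3-9 mutants ended with the block for mRpL1 (-0.19, 0.136), mRpL17 (-0.24, 0.0537), mRpL28 (-0.18, 0.0695), mRpS24 (-0.16, 0.0849) and mRpS35 (-0.21, 0.0954). Against wildtype arrays A to C only, the same calls ended, except that of mRpL17 in Su(var)3-9 mutants. Array weights ended the fall of mRpL1 (-0.08, 0.164). Leaving out Setdb1 array A (0.18, 0.104) or B (0.21, 0.0606) also ended the rise of mRpL12.

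mRpL1 lay at 9.72, 9.79 and 9.83 (lowest, median and highest) in wildtype, 9.78, 9.96 and 9.95 in HP1a mutants, 9.92, 9.81 and 9.91 on the arrays labelled HP1a Pof, 10.01, 10.11 and 10.16 with Setdb1 mutated and 9.65, 9.74 and 9.35 with Su(var)3-9 mutated. mRpL4, which reaches into the exit tunnel in bacteria, lay at 9.77, 9.82 and 9.87 (lowest, median and highest) in wildtype, 9.84, 9.84 and 9.75 in HP1a mutants, 9.77, 9.65 and 9.81 on the arrays labelled HP1a Pof, 9.94, 10.03 and 10.09 with Setdb1 mutated and 9.64, 9.66 and 9.41 with Su(var)3-9 mutated. For both, all Setdb1 arrays lay above wildtype, and the Su(var)3-9 arrays lay below it but for array B of mRpL1. mRpL17 lay at 10.54, 10.58 and 10.62 (lowest, median and highest) in wildtype, 10.56, 10.76 and 10.72 in HP1a mutants, 10.60, 10.55 and 10.56 on the arrays labelled HP1a Pof, 10.70, 10.72 and 10.91 with Setdb1 mutated and 10.44, 10.44 and 10.16 with Su(var)3-9 mutated. mRpS11, of the small subunit platform, lay at 10.16, 10.26 and 10.33 (lowest, median and highest) in wildtype, 10.43, 10.36 and 10.44 in HP1a mutants, 10.39, 10.30 and 10.41 on the arrays labelled HP1a Pof, 10.40, 10.41 and 10.56 with Setdb1 mutated and 10.05, 10.06 and 9.70 with Su(var)3-9 mutated. For this pair all Setdb1 arrays lay above and all Su(var)3-9 arrays below wildtype. mRpS24 lay at 9.38, 9.47 and 9.52 (lowest, median and highest) in wildtype, 9.67, 9.71 and 9.65 in HP1a mutants, 9.75, 9.71 and 9.69 on the arrays labelled HP1a Pof, 9.63, 9.61 and 9.65 with Setdb1 mutated and 9.35, 9.35 and 9.12 with Su(var)3-9 mutated. mRpS35 lay at 9.48, 9.57 and 9.61 (lowest, median and highest) in wildtype, 9.56, 9.56 and 9.57 in HP1a mutants, 9.65, 9.64 and 9.55 on the arrays labelled HP1a Pof, 9.68, 9.80 and 9.97 with Setdb1 mutated and 9.38, 9.45 and 9.15 with Su(var)3-9 mutated. Here again the Setdb1 arrays lay above and the Su(var)3-9 arrays below wildtype, and for mRpS24 the HP1a arrays and those labelled HP1a Pof lay above it too.

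Few members were called between Setdb1 and HP1a mutants, which does not show that the 2 groups are alike. mRpL45, mRpL48 and mRpS31 were higher in HP1a mutants and mRpL28, mRpS5 and mRpS35 lower, 3 each way of 69, beside 8.44% and 10.0% of all genes. The call of mRpS35 (-0.25 ± 0.08, limma adjusted p = 0.0468) ended with the replicate block (-0.25, 0.0967) and without any 1 of the HP1a arrays or without Setdb1 array B or C, at -0.18 to -0.26. This call also ended with array weights (-0.25, 0.0634), with no filter (-0.25, 0.0598) and with wildtype arrays A to C only (-0.25, 0.0962). That of mRpL48 (0.36 ± 0.09, 0.0156) ended without HP1a array B (0.28, 0.0621) or Setdb1 array B (0.29, 0.0823). Without Setdb1 array A, 5 members instead of 3 were called lower in HP1a mutants. With centred arrays 3 were higher and 9 lower, beside 8.53% and 12.5% of all genes. The median difference over members was -0.06.

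No member differed between the arrays labelled HP1a Pof and HP1a mutants. limma called 0 of 69 higher and 0 lower, beside 0.244% and 0.487% of all genes, and 0 members passed an unadjusted p under 0.05. Centring left both counts at 0, beside 0.292% and 0.487%. The 69 differences lay between -0.12 and 0.12 with standard errors between 0.07 and 0.12, and their median was -0.02. The lack of a call does not show that the groups are alike. Since Pof reads higher on the arrays labelled as its mutant, no direction was drawn from this comparison.

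tko, whose symbol hides the small subunit protein S12 of the decoding site, did differ. It is no member by symbol, and neither is bonsai, which encodes the small subunit protein S15. tko lay between 10.61 and 10.73 in wildtype, 10.50 and 10.62 in HP1a mutants, 9.87 and 10.04 on the arrays labelled HP1a Pof, 10.00 and 10.26 in Setdb1 mutants, and 10.61 and 10.80 in Su(var)3-9 mutants. The arrays labelled HP1a Pof were the lowest but for an overlap with the Setdb1 group, at -0.70 ± 0.07 against wildtype (limma adjusted p = 4.17e-07) and -0.58 against HP1a mutants (0.000819). It fell by -0.50 ± 0.07 in Setdb1 mutants (2.49e-05) and was not called in HP1a (-0.11, 0.176) or Su(var)3-9 mutants (0.05, 0.541). bonsai rose in all 4, by 0.29, 0.21, 0.48 and 0.23 in HP1a mutants, on the arrays labelled HP1a Pof and in the Setdb1 and Su(var)3-9 groups.

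Members with and without a counterpart in bacteria were also set side by side, a grouping taken from mammalian nomenclature. Of the 44 with one, 21 rose in Setdb1 mutants, 14 in HP1a mutants and 3 in Su(var)3-9 mutants, where 25 fell. Of the 25 without, 13 rose in Setdb1 mutants, 12 in HP1a mutants and 5 in Su(var)3-9 mutants, where 7 fell. Of all tested genes, 17.3%, 23.5% and 16.3% were called higher in that order. In Su(var)3-9 mutants 56.8% of the first and 28.0% of the second class fell, beside 47.6% of all genes, and the difference between the classes was not tested. Fewer members fell there with centred arrays or without array C, as given above. By chromosome, 12 members lie on 2L, 10 on 2R, 17 on 3L, 19 on 3R, 11 on X and 0 on chromosome 4, where 55 of the tested genes lie. On X, 6 of 11 members (54.5%) rose in HP1a mutants, beside 20 of 58 autosomal members (34.5%) and 23.5% of all genes. For Setdb1 mutants the counts were 7 of 11 (63.6%) on X and 27 of 58 (46.6%) on autosomes, beside 17.3% of all genes, and the difference between X and autosomes was not tested.

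Other genes of mitochondrial gene expression moved in part with the members. For this and the lists that follow, all tested genes were called at 23.5% higher and 35.6% lower in HP1a mutants. The shares were 25.0% and 35.8% on the arrays labelled HP1a Pof, 17.3% and 35.2% in Setdb1 mutants, and 16.3% and 47.6% in Su(var)3-9 mutants. Of 10 tested translation factors, 4 rose in HP1a mutants and on the arrays labelled HP1a Pof and 3 in the remaining mutants each, among them mEFTu1, which brings transfer RNA to the ribosome (0.57, 0.55, 0.36 and 0.21). The initiation factor mIF3 fell by -0.40, -0.46 and -0.27 in HP1a mutants, on the arrays labelled HP1a Pof and in Su(var)3-9 mutants, and changed by -0.15 in Setdb1 mutants (limma adjusted p = 0.23). mRRF2, of the same list, fell by -0.27 in HP1a mutants and by -0.79 in Su(var)3-9 mutants, where it read 5.85, 5.58 and 5.23. It was not called on the arrays labelled HP1a Pof (-0.26) or in Setdb1 mutants (0.09). Of 15 mitochondrial aminoacyl-tRNA synthetases, 2 rose and 5 fell in HP1a mutants and 2 rose and 2 fell with Setdb1 mutated. Of 17 factors for mitochondrial DNA and RNA, 3 rose and 6 fell in HP1a mutants, 1 rose and 4 fell in Setdb1 mutants, 0 rose and 7 fell in Su(var)3-9 mutants. Among these mTerf3, a transcription termination family protein needed in mice and flies for making mitochondrial ribosomes, fell by -0.49, -0.53, -0.49 and -0.70.

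Genes for the machinery that brings members into the mitochondrion and folds them rose in most cases in the HP1a groups. Of 18 tested genes for import and folding, 11 rose and 1 fell in HP1a mutants and on the arrays labelled HP1a Pof, 8 rose and 1 fell in Setdb1 mutants, and 3 rose and 5 fell in Su(var)3-9 mutants. Roe1, a nucleotide exchange factor for the mitochondrial Hsp70, lay between 8.59 and 8.88 in wildtype and between 10.29 and 10.43 in HP1a mutants, a rise of 1.68 ± 0.12 (limma adjusted p = 1.22e-08). It rose by 1.44 ± 0.12 in Setdb1 mutants (1.16e-07), and its change in Su(var)3-9 mutants was 0.05 ± 0.12 (0.753). The chaperones Hsc70-5 and Hsp60A rose in all 4 mutants, by 0.43 to 0.81 and 0.39 to 0.66, while Tom40, the pore of the outer membrane, fell by -0.34 to -0.79.

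The respiratory chain, part of which the mitochondrial ribosome makes, had more genes called lower than higher in all but the Setdb1 mutants. All tested genes had more called lower than higher in all 4 mutants, at the shares given above. Of 53 tested nuclear genes for respiratory chain and ATP synthase subunits, 2 rose and 26 fell in HP1a mutants, 0 rose and 26 fell on the arrays labelled HP1a Pof, 8 rose and 7 fell in Setdb1 mutants, and 6 rose and 20 fell in Su(var)3-9 mutants. In Su(var)3-9 mutants both shares of this list lay under those of all genes, 16.3% higher and 47.6% lower. ND-20, a complex I subunit, fell by -0.60, -0.60, -0.33 and -0.36. Of 37 tested cytoplasmic ribosomal protein genes, 3 rose and 2 fell in HP1a mutants, 5 rose and 4 fell on the arrays labelled HP1a Pof, limma called none in Setdb1 mutants (1 higher and 0 lower at an unadjusted p under 0.05), and 3 rose and 9 fell in Su(var)3-9 mutants. Only 37 of the 93 cytoplasmic ribosomal protein genes in the list had a tested probe set of their own. Differences between these lists and the members were not tested.

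**Figure D4:**
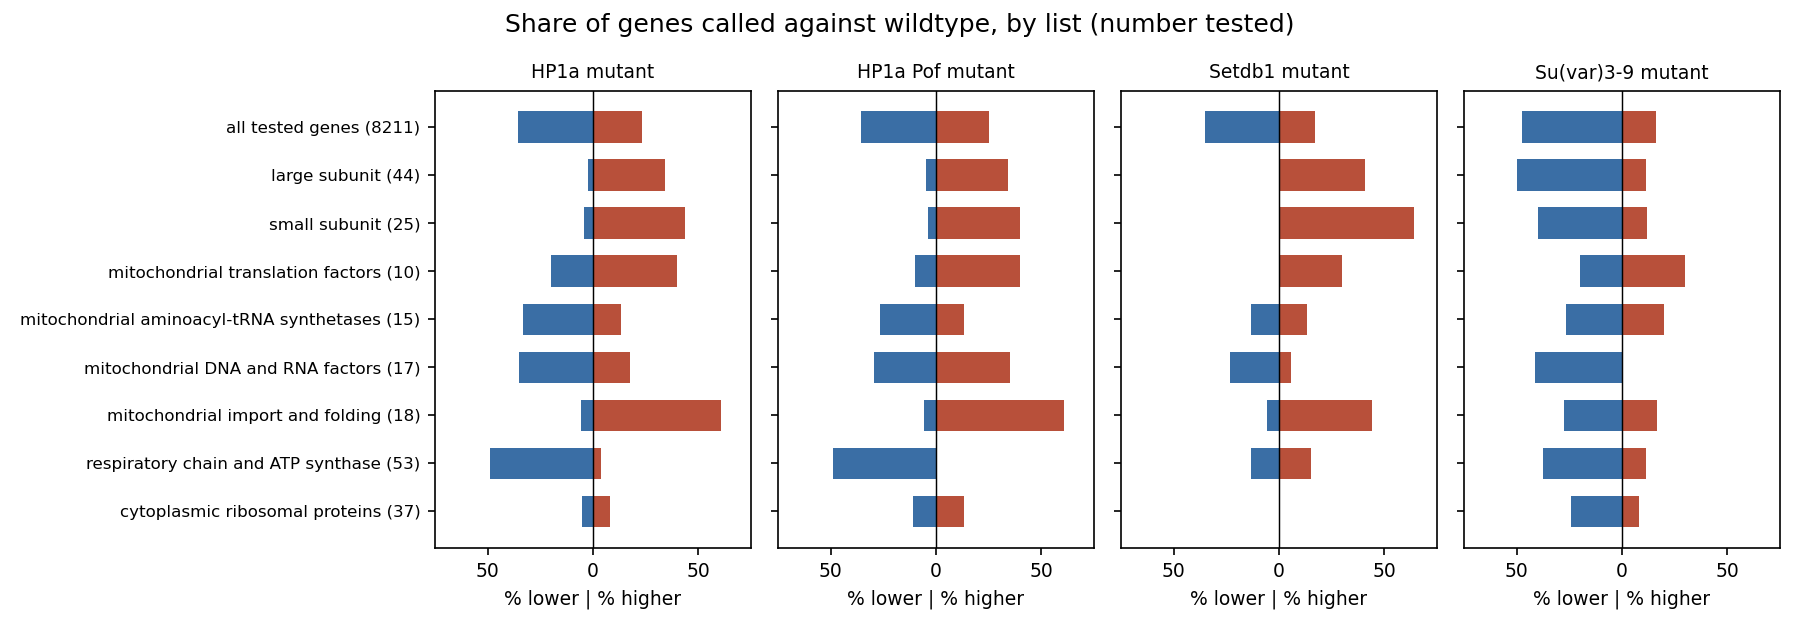
Share of genes called higher (red, to the right) and lower (blue, to the left) against wildtype in each mutant, in percent of the genes tested in that list, with the number tested in brackets. In Setdb1 mutants the 44 large and 25 small subunit genes have a bar to the right alone, at 40.9% and 64.0%, beside 17.3% of all tested genes.

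For 2 members a second probe set gave other values. mRpL47, at 10.61 in wildtype and 10.91 to 10.94 in HP1a, HP1a Pof and Setdb1 groups by the set used, read 9.81 in wildtype and 9.77, 9.74 and 9.98 by the second. In Su(var)3-9 mutants it read 10.64 by the set used and 9.53 by the second, so only the second was below wildtype. mRpS11, at 10.25 in wildtype and 10.46 in Setdb1 mutants by the set used, read 9.96 and 9.90 by the second. In HP1a mutants and on the arrays labelled HP1a Pof it read 10.41 and 10.37 by the set used. The second set read 9.64 and 9.60 there, below wildtype. With the mean of both sets the change of mRpS11 in Setdb1 mutants was 0.07 (limma adjusted p = 0.409), so its rise rests on 1 probe set. In Su(var)3-9 mutants both sets of mRpS11 read lower, at 9.94 and 9.44.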

How the data were processed

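Values were deposited as log2 expression signals of 18952 probe sets on 18 one-colour Affymetrix arrays, made with RMA, per the submitters' processing notes. For RMA no version or settings, and for the arrays no genome build, is given in the sources used here. Array medians lay between 5.93 and 6.03. Probe sets naming 1 gene (13647) gave 11982 genes through the platform annotation and Release 6 of the RefSeq table. Genes at a log2 level of 6 or more on at least 3 arrays, 8211 in all, were fitted by limma 3.58.1 (R 4.3.3) in a linear model of 5 groups, 13 residual degrees of freedom, moderated variances and Benjamini-Hochberg adjustment over all tested genes, and called at an adjusted p under 0.05. The number of arrays limits the precision. The fit was tested on simulated data.

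Members and lists were chosen with earlier results of these data known. Values by array were given by a rule for 24 members: up to 4 per subunit called higher in all 4 mutants, up to 3 largest called rises and falls of each comparison with wildtype, up to 2 of each comparison between mutants, and members called in opposite directions or lower in 2 or more comparisons. The bacterial grouping and the neighbours of mRpS5 were chosen after values were seen. Arrays with the same letter in their labels had residual correlations of at least 0.334 between HP1a mutants and wildtype, 0.270 between Setdb1 mutants and wildtype, and 0.105 between Su(var)3-9 mutants and wildtype. They were at least 0.423 between the arrays labelled HP1a Pof and HP1a, and 0.271 between HP1a and Setdb1 mutants. In the other comparisons the lowest were 0.078, -0.054 and -0.009. The main fit held no term for the letters, so its p-values are not paired. Letters entered only as the replicate block among the alternatives. Alternatives were centred arrays, no filter, a filter at 8, probe set means, array weights, a replicate block, wildtype A to C only and leaving out each array. Sequences of members were not used here.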

Additional observations from a re-analysis of the deposited data

Results flagged for a closer look

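On 1 wildtype array mRpS31 read 9.59, while the next highest wildtype array read 9.45 and the lowest 9.39. The gap to the nearest array was 0.706 of the group's range, above Dixon's critical value of 0.625 for 6 arrays. Of 28 series of wildtype values tested in this way 1 was flagged, and chance flags about 1 in 20. All mutant arrays stayed above 9.59 for this gene.

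The probe set shared by CG34316 and mRpS10, which entered no comparison, averaged 9.93 on the arrays labelled HP1a Pof and 9.98 in Setdb1 mutants. The lowest arrays of these groups read 9.91 and 9.88, above the highest wildtype array at 9.84. Which of the 2 genes gives the signal was not determined, and the difference was not tested.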

How the results depend on the processing

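Of the 101 called values of the 24 named members, 65 were called under every alternative run and 36 were lost in at least 1. Of the losses, 18 came with centred arrays, 20 with the replicate block, 20 with wildtype A to C only, 5 with array weights and 15 without Su(var)3-9 array C. The cause was not tested. With centred arrays the members called higher were 42 in HP1a mutants, 39 on the arrays labelled HP1a Pof, 56 for Setdb1 and 20 for Su(var)3-9 against wildtype, and 16 for HP1a over Su(var)3-9 mutants. Those called lower were 8 in Su(var)3-9 mutants, 9 for HP1a below Setdb1 mutants and 2 for Setdb1 below Su(var)3-9 mutants. The sign turned there for mRpL1 (0.02), mRpL12 (0.00), mRpL28 (0.01), mRpS24 (0.03) and the member median (0.08) in Su(var)3-9 mutants. With array weights 6 members were lower in HP1a mutants, 11 on the arrays labelled HP1a Pof and 1 for Setdb1 below Su(var)3-9 mutants, and 13 were higher in Su(var)3-9 mutants. With the replicate block, or with wildtype A to C only, 5 were higher in Su(var)3-9 mutants, and the block moved no other count by over 1.5 times.

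Leaving out 1 array gave 22 to 26 members higher and 2 lower in HP1a mutants, 17 to 25 higher and 2 to 4 lower on the arrays labelled HP1a Pof, and 20 to 35 higher and 0 lower in Setdb1 mutants (20 without Setdb1 array C). In Su(var)3-9 mutants it gave 5 to 12 higher (5 without array A or B) and 14 to 37 lower (14 without array C). Between mutants it gave 19 to 44 for HP1a over Su(var)3-9, 28 to 57 for Setdb1 over Su(var)3-9 (19 and 28 without Su(var)3-9 array C), 2 to 3 for HP1a over Setdb1 and 2 to 5 for HP1a below Setdb1 (5 without Setdb1 array A). The arrays labelled HP1a Pof against HP1a mutants gave 0 and 0 throughout, and the member median there ran from -0.04 without array A of the former to 0.03 without its array B. Shares of all tested genes are not given for these fits, so whether the counts moved with them was not tested.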

Other observations

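The probe set shared by CG33155 and mRpL53 averaged 10.43 ± 0.06 (SD, n = 6) in wildtype, 10.42 ± 0.03 in HP1a mutants, 10.49 ± 0.07 on the arrays labelled HP1a Pof, 10.57 ± 0.08 with Setdb1 mutated and 10.24 ± 0.13 with Su(var)3-9 mutated (n = 3 each). It names 2 genes, so it was not counted among the members.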
